A study of Zea mays with 4 samples.

Results

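This account covers the maize (Zea mays) probes for CBL-interacting protein kinases (CIPKs) and for calcineurin B-like calcium sensors (CBLs) on spotted oligonucleotide arrays of roots given nitrate on one side. The members were 6 listed probe IDs and every other maize probe, with 1 spot on 1 array version only, whose description names a CBL-interacting kinase, a CIPK, a calcineurin B protein or the kinase SOS2. This gave 30 probes of 54787 with 1 spot in 1 version. There were 14 on array version A (5 kinases and 9 sensors) and 16 on version B (11 kinases and 5 sensors). All 6 listed IDs are kinases.

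The nitrate group was RNA from half-roots supplied with 1 mM nitrate for 1 h. The control group was RNA from control half-roots, and the series text describes the side without nitrate as nitrogen-free with 1 mM calcium chloride added to balance calcium. All plants were raised on 0.5 mM nitrate (6 days) and then starved of nitrogen (2 days) before their roots were divided between 2 compartments, and the sampled tissue, at day 10, was a 15 cm segment behind the root tip. The cultivar, and whether nitrate and control half-roots came from the same plants, are unstated in the labels. Each of the 4 arrays carried nitrate RNA in Cy3 and control RNA in Cy5, with 2 replicate arrays for each version, so a dye effect of a probe cannot be told apart from a nitrate effect. Fewer cells of a type and less RNA per cell cannot be told apart in such whole root segments.

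CBL proteins bind calcium and recruit CIPKs, a plant group of SNF1-related serine/threonine kinases, to the plasma membrane or the vacuole. There the kinases phosphorylate transporters and channels. In Arabidopsis, CIPK23 with CBL1 or CBL9 activates the potassium channel AKT1 and phosphorylates the nitrate transporter and sensor NRT1.1. CIPK24, known as SOS2, works with the sensor SOS3 (CBL4) on the sodium/proton antiporter SOS1. Transcripts of CIPK8 and CIPK23 are known to respond to nitrate in Arabidopsis roots. The direction of that response was not compared with the maize ratios.

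Of the 30 probes, 29 had all 4 channels brighter than the 95th percentile of the empty (buffer or blank) spots and were tested. The other was MZ00055077, with no channel above it on replicate 2 of version B. Across all maize spots, 89.6% to 98.9% exceeded the blank spots in each channel. Of 50 probes described with root terms (root-preferential, root-specific or tonoplast intrinsic proteins and the like), 49 were above the blank spots in all channels, as were 127 of 143 leaf and photosynthesis probes and 165 of 320 seed storage probes. Values below are loess-normalized intensities and log2 ratios of nitrate over control. Intensities of different arrays were not scaled to each other, so nitrate and control are compared within an array. The limma p-values rest on 2 arrays per version. The series text states 2 biological replicates for each treatment, and whether versions A and B were hybridised with the same RNA is unstated.

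The clearest pattern in the family was a lower signal with nitrate for all 3 probes described as CIPK23 of rice, on both arrays of each probe. A probe described as CIPK-like protein (MZ00024420) and a pair described as calcineurin B protein (MZ00038184 and MZ00013503) were higher on both arrays. Ratios of opposite sign on the 2 arrays were found for 16 of the 30 probes. Version A had 7 such members of 14 tested, against 39.5% of its probes, and version B 8 of 15, against 39.7%. None of the 29 tested probes passed the limma test at an adjusted p under 0.05. In that test version A had 0% of its 28374 tested probes passing, and version B had 0.0525% of its 24748, all of them higher. The smallest adjusted p of a member was 0.334 on version A and 0.15 on version B (limma). At an unadjusted limma p under 0.05, 1 of 14 members on version A was lower and 0 were higher, against 4.49% and 7.55% of all probes. On version B 2 of 15 tested members were lower and 2 higher, against 5.29% and 7.64% of all probes. The median log2 ratio of the members was -0.10 on version A and -0.06 on version B, against 0.0038 and -0.0036 over all tested probes.

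MZ00005879, a CIPK23 probe of version B, had intensities of 3709 and 2168 in the nitrate channel, against 7528 and 4696 in the control channel, on replicates 1 and 2. On each array the nitrate value was below the control value. The 2 log2 ratios were -1.02 and -1.12, with a mean of -1.07 ± 0.07 (SD, n = 2), or 2.10-fold lower with nitrate. The 95% limma interval ran from -1.60 to -0.54, with an unadjusted p of 0.00134 and an adjusted p of 0.15, so the probe did not pass over all probes. Only 0.323% of the probes on version B had a mean ratio as low or lower.

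MZ00016158, the other CIPK23 probe of version B, had 2617 and 2473 in the nitrate channel, against 4640 and 4215 in the control channel. Here too the nitrate value was below the control value on each array. Its log2 ratios were -0.83 and -0.77, with a mean of -0.80 ± 0.04 (SD, n = 2), a 95% limma interval from -1.33 to -0.27 and a limma adjusted p of 0.231. The files list the same maize sequence, AZM4_115274, as a match of both version B probes. The pair may thus read 1 transcript and is not a set of independent measurements. The spots lie in different blocks of the array, 43 and 26.

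MZ00004309 is the CIPK23 probe of version A, which was on separate arrays. No further maize match is listed for it, so whether it reads the same transcript as the version B pair cannot be told. All 3 have the same top rice hit and list the same rice gene model. MZ00004309 had 977 and 978 in the nitrate channel, against 1354 and 1410 in the control channel, again lower on each array. Its log2 ratios of -0.47 and -0.53 gave a mean of -0.50 ± 0.04 (SD, n = 2), a 95% limma interval from -1.03 to 0.03 and a limma adjusted p of 0.428. The gap between arrays was 0.06 for this probe, 0.06 for MZ00016158 and 0.09 for MZ00005879. The median gap was 0.35 over all probes of version A and 0.34 over those of version B. Of the 29 tested members, only MZ00005879 and MZ00016158 were at least 1.5-fold lower on both arrays, a size reached by 1.54% of probes on version B and 1.5% on version A. None was at least 1.5-fold higher on both arrays, which 2.92% of probes on version B and 3.08% on version A were. The means of the 3 CIPK23 probes kept their sign in the 6 alternative settings that recompute the ratio, from -1.24 to -1.04 for MZ00005879, from -0.93 to -0.80 for MZ00016158 and from -0.55 to -0.35 for MZ00004309.

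Another 5 kinase probes share 1 rice hit described only as a putative CBL-interacting protein kinase, and they did not move alike. MZ00030133 on version A had 1072 and 796 in the nitrate channel, against 2219 and 1175 in the control channel. The nitrate value was below the control value on each array, by more on replicate 1. The log2 ratios were -1.05 and -0.56, with a mean of -0.81 ± 0.34 (SD, n = 2), a 95% limma interval from -1.38 to -0.23, an unadjusted p of 0.013 and an adjusted p of 0.334. This was the member of version A with the lowest ratio, and 1.4% of the probes there had a mean as low or lower.

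MZ00023273, also of this hit on version A, had log2 ratios of 0.10 and -0.48. The maize sequence AZM4_24583 is listed as a full match of MZ00023273 but only at a lower match grade for MZ00030133. Whether these probes read the same transcript thus cannot be told. The intensities of MZ00023273 were 583 and 544 in the nitrate channel and 543 and 758 in the control channel. The 2 probes thus differed by 1.15 on the log2 scale on replicate 1, with MZ00030133 the lower, and by 0.08 on replicate 2. MZ00003407, a dim probe of the same hit, had 229 and 260 in the nitrate channel, against 365 and 322 in the control channel. Its log2 ratios of -0.67 and -0.31 averaged -0.49 ± 0.26 (SD, n = 2; limma adjusted p = 0.447) and the mean became -0.15 with median centring in place of loess. On version B the remaining probes of this hit had ratios of 0.35 and -0.11 (the listed MZ00035909) and of -0.10 and -0.01 (MZ00035910). The maize sequence AZM4_68333 is the source of MZ00035909 but is listed only at the lower match grade for MZ00035910. The listed probe had 6154 and 6958 in the nitrate channel and 4823 and 7498 in the control channel, with a mean ratio of 0.12 ± 0.32 (SD, n = 2; limma adjusted p = 0.869), and its sign turned to -0.11 with median centring.

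Both probes described as CIPK-like protein share a rice hit but lay on opposite sides of 0. MZ00024420 had 44198 and 57354 in the nitrate channel, against 27481 and 43022 in the control channel. Nitrate was the higher channel on each array. The log2 ratios of 0.69 and 0.41 gave a mean of 0.55 ± 0.19 (SD, n = 2), or 1.46-fold, with a 95% limma interval from 0.01 to 1.09, an unadjusted p of 0.0468 and an adjusted p of 0.38. With median centring the mean was 0.14 and the ratio of replicate 2 was -0.02. Its deposited intensity on replicate 2 reached 87.3% of the highest value on that array in the nitrate channel and 69.8% in the control channel. The part of this brightness in the ratio was not tested.

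MZ00051675, the other CIPK-like probe, had 704 and 877 in the nitrate channel, against 940 and 1038 in the control channel. Its log2 ratios of -0.42 and -0.24 averaged -0.33 ± 0.12 (SD, n = 2; limma adjusted p = 0.601), and -0.08 with median centring. On the same arrays the ratio of MZ00051675 was below that of MZ00024420 by 1.10 and 0.66 on the log2 scale. The ratio of the CIPK23 probe MZ00005879 was below that of MZ00024420 by 1.71 and 1.53. These are differences between probes chosen for their ratios and are given without a test.

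Probes described as SOS2 or as CIPK3, a kinase linked in Arabidopsis to abscisic acid and cold responses, gave ratios of opposite sign on their 2 arrays. The SOS2 probe of version A, MZ00018877, had 3839 and 4921 in the nitrate channel, against 1887 and 5579 in the control channel. The control value of replicate 1 was far below the other 3 values, though the arrays were not scaled to each other. The ratios of 1.02 and -0.18 averaged 0.42 ± 0.85 (SD, n = 2), with a 95% limma interval from -0.34 to 1.19 and an adjusted p of 0.608. On version B the SOS2 probe MZ00051158 had ratios of 0.11 and -0.43, with 2227 and 269 in the nitrate channel and 2064 and 364 in the control channel. The listed CIPK3 probe MZ00049748 had 1416 and 310 in the nitrate channel, against 1252 and 498 in the control channel, with ratios of 0.18 and -0.68 and a mean of -0.25 ± 0.61 (SD, n = 2; limma adjusted p = 0.737). The other CIPK3 probe, MZ00055077, had ratios of 0.40 and -0.23 and was not tested.

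In deposited intensity, these 3 version B probes were 3.98 to 12.1 times as bright on replicate 1 as on replicate 2, in both channels. They list the same rice gene model as their only rice match, and MZ00018877 lists it among others. The descriptions SOS2 and CIPK3 thus need not stand for different maize genes here. Across version B 8.98% of maize spots were at least 3-fold brighter on replicate 1 in both channels and 0.513% on replicate 2. Their ratios on replicate 2 thus come from dim spots, and the reason for the change in brightness was not tested.

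A last pair of kinase probes on version B shares a rice hit described as a putative CBL-interacting protein kinase. The listed MZ00001983 had 3738 and 3985 in the nitrate channel, against 6452 and 3361 in the control channel. It was thus lower with nitrate on replicate 1 and higher on replicate 2, with ratios of -0.79 and 0.25, a mean of -0.27 ± 0.73 (SD, n = 2), a 95% limma interval from -0.93 to 0.38 and an adjusted p of 0.733. For MZ00001983 the control values differed between the arrays far more than the nitrate values, again without scaling between arrays. MZ00049525 had ratios of -0.22 and 0.30.

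Among kinases, 3 of 5 on version A and 4 of 10 tested on version B were lower on both arrays, against 30.1% and 30.6% of all probes. Higher on both arrays were 0 on version A and 1 on version B, against 30.4% and 29.7%. The kinase median was -0.49 on version A and -0.21 on version B. Members that share a hit are not independent, and the 16 kinase probes fall on 6 hits.

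The 14 sensor probes fall on 5 hits and were mostly near 0. CBL1 and CBL9 are the Arabidopsis sensors that bring CIPK23 to the plasma membrane. The 3 probes with a hit listed as calcineurin B 1 protein or CBL9 of Arabidopsis had the smallest spread of any hit with 3 or more probes. MZ00025273 had 9439 and 10177 in the nitrate channel, against 9575 and 11596 in the control channel, with ratios of -0.02 and -0.19. MZ00025274 had 7341 and 9345 in the nitrate channel and 8376 and 9425 in the control channel, with ratios of -0.19 and -0.01. The mean was -0.10 for both, with 95% limma intervals from -0.64 to 0.43, which leave room for a change of about the size seen for MZ00004309. On version B the third, MZ00043714, had ratios of 0.10 and -0.17.

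The hit described as calcineurin B protein of rice had 6 probes with means from -0.11 to 0.64. The highest was MZ00038184, with 738 and 447 in the nitrate channel, against 361 and 378 in the control channel. The nitrate value was above the control value on each array, by far the more on replicate 1. The ratios of 1.03 and 0.24 averaged 0.64 ± 0.56 (SD, n = 2), with a 95% limma interval from 0.03 to 1.24, an unadjusted p of 0.0412 and an adjusted p of 0.369. The mean of this dim probe ranged from 0.64 to 1.23 over the alternative settings. Its partner MZ00038186 had 0.70 and -0.02, and MZ00041017 had 0.54 and -0.30, so the version B probes of this hit were all higher on replicate 1 and spread around 0 on replicate 2. On version A MZ00013503 had ratios of 0.09 and 0.33, which became -0.17 and 0.15 with print-tip loess and -0.16 and 0.21 in the deposited ratios. MZ00013507 had -0.41 and 0.19, and MZ00024798 had -0.14 and 0.02.

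Of the other sensors, MZ00018350, described as calcineurin B-like protein, had the lowest mean, at -0.38 ± 0.47 (SD, n = 2; limma adjusted p = 0.565). Its intensities were 774 and 746 in the nitrate channel and 797 and 1224 in the control channel, so the difference came from replicate 2, with ratios of -0.04 and -0.71. The 2 further probes of this hit had ratios of 0.11 and -0.25 (MZ00007306) and of 0.24 and -0.23 (MZ00023902). MZ00023901, a calcineurin B-like protein with its own hit, had -0.41 and 0.21. MZ00026891, described as a calcineurin B subunit, the regulatory part of a calcium-dependent phosphatase in animals and fungi, had 6916 and 4667 in the nitrate channel, against 8043 and 5977 in the control channel. Its ratios of -0.22 and -0.36 averaged -0.29 ± 0.10 (SD, n = 2; limma adjusted p = 0.652). Of the sensors, 3 of 9 on version A were lower on both arrays and 1 was higher, and on version B 1 of 5 was lower and 1 higher. These sensor shares were 33.3% and 20% lower and 11.1% and 20% higher on versions A and B. Over all probes 30.1% and 30.6% were lower on both arrays and 30.4% and 29.7% higher. With so few probes, some on a shared hit, the differences were not tested. The sensor median was -0.10 on version A and 0.12 on version B. No sensor was lower at an unadjusted limma p under 0.05, and MZ00038184 alone was higher.

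Families that include known targets or partners of the kinases, or related proteins, were read from the same arrays by keywords in the descriptions. No probe was picked as an established target. Probes were counted at an unadjusted limma p under 0.05 in either version. Over all probes 7.55% (version A) and 7.64% (version B) were higher at that threshold, and 4.49% and 5.29% lower. Of 68 tested probes for potassium channels and transporters, 5 were higher and 1 lower, with a median log2 ratio of 0.07. The highest was a probe described as the potassium transporter HAK7 of Arabidopsis (MZ00021335), with ratios of 0.20 and 1.57. Its control channel was dim, with deposited intensities of 67 and 30 against 95th percentiles of the blank spots of 32.25 and 21. A putative potassium channel regulatory factor (MZ00017094) had 0.94 and 0.82. Of 36 nitrate and ammonium transporter probes, 2 were higher and 0 lower. These were a putative high affinity nitrate transporter (MZ00022068), with ratios of 2.48 and 0.69 (limma adjusted p = 0.304), and a putative ammonium transporter (MZ00051229), with 0.47 and 0.67 (limma adjusted p = 0.365).

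Sodium/proton antiporters, the class of the SOS2 target, had 2 of 22 tested probes higher and 0 lower. MZ00040660, described only as a Na+/H+ antiporter, had ratios of 0.37 and 0.99. MZ00013211, described as the antiporter NHX6, had 0.65 and 0.61. Plasma membrane proton ATPases, which energise uptake, had 2 of 18 higher and 0 lower, namely MZ00009329 with 0.69 and 1.26 and MZ00035524 with 0.95 and 0.49. On replicate 2 the deposited nitrate intensity of MZ00035524 was 100% of the highest value on that array. The part of this brightness in its ratio was not tested. Type 2C protein phosphatases, of which some bind CIPKs, had 1 of 72 higher and 7 lower, with a median of -0.10. A phosphatase 2C-like probe (MZ00019036) had -0.90 and -0.85 (limma adjusted p = 0.304), while another (MZ00030089) had 1.08 and 0.54. The SNF1-related list held 3 probes, with 0 higher and 0 lower. The one of these with the same sign on both arrays, a putative SnRK1-interacting protein (MZ00025678), had -0.43 and -0.44.

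Of 182 tested probes whose descriptions name calmodulin or a calcium-dependent protein kinase, 15 were higher and 9 lower, with a median of 0.06. Calmodulin-binding proteins are among them. Over all probes 7.55% and 7.64% were higher and 4.49% and 5.29% lower on versions A and B, so these counts were near the background. A calcium-dependent protein kinase probe (MZ00043881) had ratios of 0.97 and 1.03 (limma adjusted p = 0.164), and a probe described as a calmodulin-binding protein (MZ00010054) had 0.44 and 1.64. Nitrate and nitrite reductases, which respond to nitrate in plant roots, had 8 of 11 probes higher and 0 lower at the same threshold, with a median of 0.76. Of these lists, only the reductases held a probe past the limma test over all probes, a ferredoxin-nitrite reductase (MZ00016104) with ratios of 3.29 and 2.60 (limma adjusted p = 0.00897). A nitrate reductase probe (MZ00040552) had 1.66 and 3.50 (limma adjusted p = 0.062).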

How the data were processed

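A total of 4 two-channel arrays were used, 2 replicates each of versions A and B. Per the file headers, the authors deposited 1 intensity per spot and dye, in which values below 0 show that a background had been subtracted. The sources used here do not say how. They also deposited a ratio of nitrate over control with medians of 0.985 to 1.00, equal to the series value table within 0.0001 on 100% of spots.

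From the intensities, log2 ratios were made in R 4.3.3 using the limma package, version 3.58.1: normexp (offset 50), then loess array by array. Weight 0 was given to control spots and to the 4 to 10 spots per array with the deposited flag B, whose meaning the sources used here do not give. Tested probes had, on both arrays, 1 or both channels over the 95th percentile of empty spots. The mean ratio was tested against 0 (lmFit, eBayes), with Benjamini-Hochberg adjustment over each version. The small number of arrays, 2 per version, limits the precision and leaves 1 residual degree of freedom. The fit was tested on simulated data. Alternatives were 10 settings and leaving out each replicate.

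All members were named; full values were given for the 6 listed IDs and, on each version, the 4 others with the largest mean ratio of 1 sign on both arrays, and for partner lists at most 2 probes with the largest such ratios. Members and lists were chosen with earlier results of these data known. None of the 30 probes' source sequences was named in the RefSeq gene table used here (30 without a match), so genome positions and probe sequences are not used here.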

Additional observations from a re-analysis of the deposited data

How the results depend on the processing

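No member passed the limma test in any of the 10 alternative settings, and the lowest adjusted p of a member was 0.0698 (MZ00005879, median centring). Of the settings, 6 recompute the ratios and 4 (filters and priors) leave them as they were. Over those 6, 83 of 84 mean ratios of the 14 members given in full kept their sign, the exception being MZ00035909, at -0.11 with median centring. Of all 29 tested members, 9 turned in at least 1 of the 6. The median of the members stayed within the spread between arrays in all of these settings. With 1 array left it ranged from -0.21 (without replicate 1) to -0.0898 on version A and from -0.17 to 0.10 on version B, as values without a test. With 1 array left the sign turns for each of the 16 members with opposite signs. Among those given in full these were MZ00018877 (-0.18 without replicate 1, 1.02 without replicate 2), MZ00001983 (0.25 and -0.79), MZ00035909 (-0.11 and 0.35) and MZ00049748 (-0.68 and 0.18). The count of all probes called moved more. On version A it was 0, against 4 with an offset of 16, 8 with print-tip loess, 2 with scaling between arrays and 4 with a trended robust prior. On version B it was 13, against 4 with an offset of 16, 3 with print-tip loess, 4 with scaling between arrays, 24 with a stricter filter on dim probes and 71 with a trended robust prior. It was 0 there without normexp, with the deposited ratios and with a prior fitted by maximum likelihood. The cause of these moves was not tested. The ratio within each array already pairs nitrate with control RNA. No paired analysis was possible because, beyond that, replicate numbers are shared only between versions A and B, which carry different probes and are not compared.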

Other observations

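The arrays hold 4 further kinase probes whose leading description names only a protein kinase, with a CBL-interacting kinase named further on, so they are no members. MZ00022188 on version A had log2 ratios of -1.03 and -0.31 on replicates 1 and 2, with a mean of -0.67 ± 0.51 (SD, n = 2; limma adjusted p = 0.398). MZ00012680 on version B had -0.88 and -0.04. Both carry a hit to CIPK16 of Arabidopsis and were below 0 on both arrays, mainly on replicate 1. MZ00046367 and MZ00002227 on version B had ratios of 0.21 and 0.79 and of 0.19 and 0.50, both above 0 on both arrays. None of the 4 passed the limma test over all probes. MZ00046367 and MZ00002227 were made from the same maize sequence, AZM4_102383, and are not independent. MZ00012680 was made from another sequence and has a different top hit from theirs.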
